A study of Mus musculus with 2 samples.

Results

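The E2F and DP gene family was examined for NRF1 binding at its promoters. Its 10 members were taken by name: the activators E2f1, E2f2 and E2f3, the repressors E2f4, E2f5, E2f6, E2f7 and E2f8, and the dimerisation partner genes Tfdp1 and Tfdp2. All 10 were among 21317 protein-coding mouse genes with a known start. The data were peak lists from chromatin immunoprecipitation and sequencing with an antibody to NRF1 (nuclear respiratory factor 1) in the immortalised murine line CH12.LX (strain B10.H-2aH-4bp/Wts, sex given as female), which came from a lymphoma of B cells. The 2 libraries are labelled biological replicates of this 1 line, with no treatment or genetic change named, so they form 1 group and there is no contrast between conditions. No input control and no expression data were analysed here, so the cell type label was not checked against markers. A gene was called occupied when a peak summit of the optimal set lay within 1000 bp of its start. The authors selected that set by irreproducible discovery rate, which scores how well peak ranks recur. Its signal values, in units the sources do not define, equal those of the list called on the pooled replicates at each occupied member.

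E2F proteins bind DNA mostly as dimers with a DP protein and set the timing of genes needed for DNA replication. E2F1, E2F2 and E2F3 activate such genes when the retinoblastoma protein releases them, E2F4 and E2F5 act mainly as repressors with the related pocket proteins, E2F6 represses with Polycomb proteins, and E2F7 and E2F8 repress without a DP partner. NRF1 binds a palindromic GC-rich sequence in CpG-rich promoters and is known for genes of mitochondrial proteins, though many of its targets serve other functions. Several E2F genes are themselves targets of E2F proteins through sites in their promoters.

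The sequences below are those the peaks were read against. Capitals mark matches to the NRF1 consensus with at most 1 mismatch, or to the E2F site (TTTCCCGC, TTTCGCGC, TTTGCCGC or TTTGGCGC), each sought on both strands. They are given 5′ to 3′ on the strand of the gene. The first stretch is the upstream sequence of Tfdp1 from RefSeq (GRCm38.p6, chr8:13338501-13338724, plus strand), which ends at the last base before the gene start and holds the one exact NRF1 consensus copy of the family, GCGCACGCGC, overlapping a copy with 1 mismatch, and an E2F site read from the other strand.
Tfdp1 upstream: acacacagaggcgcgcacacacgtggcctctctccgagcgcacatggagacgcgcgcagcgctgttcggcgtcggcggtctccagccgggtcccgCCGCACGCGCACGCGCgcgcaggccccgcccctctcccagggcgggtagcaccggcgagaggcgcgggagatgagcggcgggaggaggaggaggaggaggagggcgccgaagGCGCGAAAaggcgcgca

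The pair of NRF1 sites at E2f6, each with 1 mismatch to the consensus, came from the same RefSeq table (GRCm38.p6, chr12:16810926-16810955 and chr12:16810951-16810980, plus strand). Their centres lie at -24 bp and at 1 bp from the start that this table gives, 16810965.
E2f6 site 1: ggacggcgctGCGCATGTGCaaacgcgggt
E2f6 site 2: cgggtgcactGCGCATGCGGaaagatggcc

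At E2f1 the 151 bases around the summit were read from mm9 (chr2:154395716-154395866, minus strand, upstream of all 3 annotated starts), since they carry 0 matches to either motif. The pair of E2F sites of this gene lies nearer the start, in the 5′ UTR of 1 transcript and upstream of the other two (mm9, chr2:154395600-154395629, minus strand).
E2f1 under the summit: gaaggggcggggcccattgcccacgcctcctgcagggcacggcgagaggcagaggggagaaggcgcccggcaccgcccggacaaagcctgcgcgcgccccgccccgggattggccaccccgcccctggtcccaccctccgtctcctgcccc
E2f1 E2F pair: ctttcGCGGCAAAaaggaTTTGGCGCgtaa

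The remaining sequences, all from mm9, show some of the matches of the other members and leave out those of Tfdp2, among others. They are the alternating CG run at E2f2, which fits the NRF1 consensus with 1 mismatch in overlapping registers (chr4:135728641-135728670, plus strand), the E2F sites nearest to the starts of E2f2 (chr4:135728217-135728246, plus strand) and E2f3 (chr13:30077925-30077954, minus strand), the site of E2f8 beside a summit (chr7:56136563-56136592, minus strand), and a site of each kind at E2f7 (chr10:110182286-110182315 and chr10:110182143-110182172, plus strand).
E2f2 CG run: aggtgccccGCGCGCGCGCGCcagacccga
E2f2 E2F: gcggcatatagTTTGGCGCtaaaaaaaaaa
E2f3 E2F 2: ttgaaaagccgGCGGGAAAtctgagtttcg
E2f8 E2F 1: tcccgctttccGCGCCAAAtttttaaatcg
E2f7 E2F 1: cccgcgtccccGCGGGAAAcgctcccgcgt
E2f7 NRF1: gcagcatcccGCGCGTGCGGatcgtttccc

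NRF1 occupied 8 of the 10 members. The occupied genes were E2f1, E2f2, E2f3, E2f4, E2f5, E2f6, E2f8 and Tfdp1, and E2f7 and Tfdp2 had no peak of the optimal set at the promoter. Over all 21317 genes, 7836 were occupied (36.8%), and of the 8532 genes whose promoter is CpG-rich 5431 were (63.7%). All 10 members have a CpG-rich promoter (on mm9, over the 1000 bp centred on the start, a GC share over 0.5 and a ratio of observed to expected CpG over 0.6), so the second share is the nearer background, and the members' count of 8 in 10 stood only a little over it. Signal among the 8 spanned 22.5 to 506 with a median of 53.0, below the median of 85.5 over all occupied genes (quartiles 36.0 and 418) and of 105 over occupied CpG-rich ones.

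**Figure D1:**
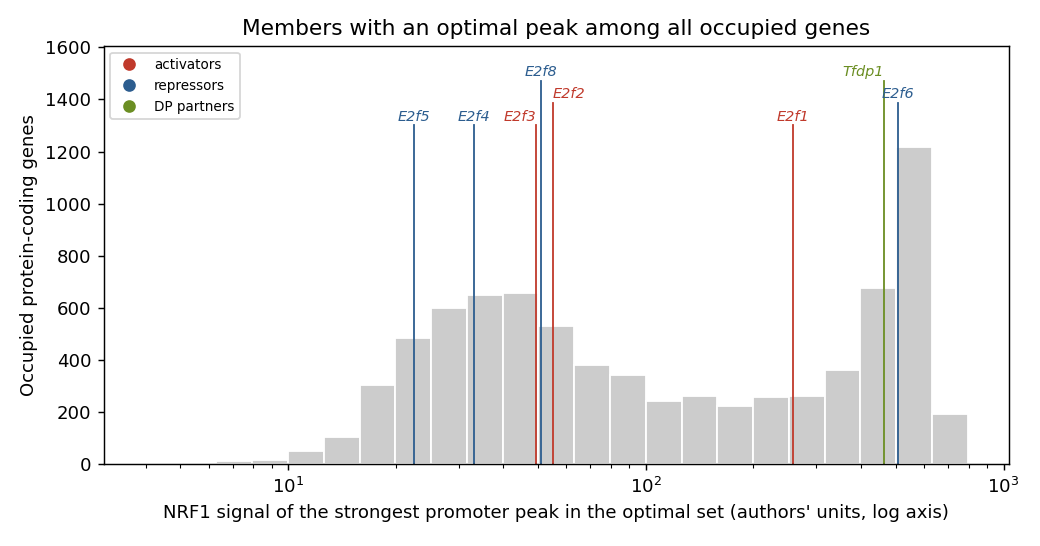
Number of occupied protein-coding genes (vertical axis) by signal of the strongest promoter peak in the optimal set (horizontal axis, authors' units, log axis), with a line at each of the 8 occupied members, coloured by class. E2f6 and Tfdp1 lie near the tall group of bars at high signal, E2f1 lies between the lower and the higher group, and the other 5 lie between 22.5 and 55.0.

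The activators were all occupied. E2f1, the founding member, had the strongest peak of the class (signal 258, mm10, chr2:154569894-154570180), with its summit 163 bp upstream of the gene start (-163). Signal there was 155 in replicate 1 and 104 in replicate 2 (130 ± 36.2, SD, n = 2), and 65.8% of occupied genes had a lower one. A weaker peak of signal 18.8 lay at 442 bp inside the gene (chr2:154569278-154569621), at -24 bp from the start listed in the RefSeq promoter table, with 17.8 in replicate 1 and 3.88 in replicate 2. The peak next to the upstream start was thus the stronger one in both replicates.

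E2f2, an activator gene with several starts, had a signal of 55.0 at 474 bp inside the gene (chr4:136172576-136172919), with 33.4 in replicate 1 and 22.6 in replicate 2 (28.0 ± 7.64, SD, n = 2). Just outside the promoter limit, at 1020 bp, lay a peak of 28.5, and a peak of 31.6 at 8216 bp lay at -292 bp from the second start in the RefSeq promoter table. NRF1 peaks therefore sat at both listed starts of E2f2, each below the median signal of occupied genes.

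E2f3, whose gene has a downstream start that gives the shorter protein E2F3b, had a signal of 49.3 at -342 bp (chr13:29986234-29986577), with 31.3 in replicate 1 and 17.9 in replicate 2 (24.6 ± 9.43, SD, n = 2). A peak of 9.72 in the optimal set lay 426 bp inside the second start of the RefSeq promoter table, with 7.76 in replicate 1 and none overlapping it in the relaxed list of replicate 2. An intragenic peak of 18.4 lay at 25179 bp. The upstream start carried the higher signal.

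The repressors were mixed. E2f6, which works with Polycomb proteins, had the highest signal of the family, 506, at 43 bp inside the gene (chr12:16810807-16811125). From the start in the RefSeq promoter table, to which the positions of its sites refer, the summit lay at -13 bp. Its replicate values were 250 and 257 (254 ± 4.61, SD, n = 2), and 82.5% of occupied genes had a lower signal. The only other peak of the locus, 5.95 at -4904 bp, was the weakest in the family's loci. The pair of near-consensus copies shown for E2f6 brackets the summit.

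E2f4 and E2f5, the pocket-protein-dependent repressors, had the lowest signals among the occupied members. E2f4 had 33.1 at 43 bp (chr8:105297534-105297877), with a rank score of 872 where the highest is 1000. Replicate 2 had 17.8 there, and replicate 1 had 2 relaxed peaks across the same stretch, of 15.4 at -93 bp and of 8.32 at 124 bp, whose nearer one gives 13.1 ± 6.70 (SD, n = 2). The start of Exoc3l, a gene on the opposite strand, lies 740 bp from this summit (-740), so the peak is within 1000 bp of both starts. A further peak of 17.0 lay at -2106 bp. E2f5 had 22.5 at 150 bp (chr3:14578580-14578923), with 13.2 and 12.7 in the replicates (13.0 ± 0.345, SD, n = 2), and only 9.09% of occupied genes were lower.

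The atypical repressors differed in their calls. E2f8 had a signal of 50.9 (chr7:48881062-48881405), with 25.5 and 25.4 in the replicates (25.4 ± 0.0591, SD, n = 2), the closest match of any member. Its summit lay 839 bp inside the RefSeq gene start, 362 bp inside the start in the promoter table, and 66 bp upstream of the lncRNA gene Gm2788 (-66) on the other strand, so the peak cannot be given to one start alone. E2f7 had no optimal or conservative peak. Its highest relaxed peak had 3.71 in replicate 1 (rank 128790 of that list, at 68 bp) and 10.3 in replicate 2 (rank 15828, at -241 bp), so only replicate 2 placed it among its 17547 highest, the size of the optimal set. The nearest optimal summit was 264763 bp away. Over all genes outside the optimal set that had a relaxed promoter peak, the median signal was 4.53 in replicate 1 and 4.70 in replicate 2.

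The DP genes, which encode the partners of E2F1 to E2F6, lay far apart. Tfdp1 had 464 at -95 bp (chr8:13338365-13338866), with 229 and 237 in the replicates (233 ± 6.14, SD, n = 2), above 78.6% of occupied genes. Further peaks of 44.7 at 2078 bp and 22.5 at 34823 bp lay inside the gene. Tfdp2 had no optimal peak. The conservative set did hold one of 23.5 at 67 bp (chr9:96196141-96196484, rank score 702), with 17.9 in replicate 1 (rank 9878) and 9.21 in replicate 2 (rank 18718). From the nearest start in the RefSeq promoter table that summit lay at -62392 bp.

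**Figure D2:**
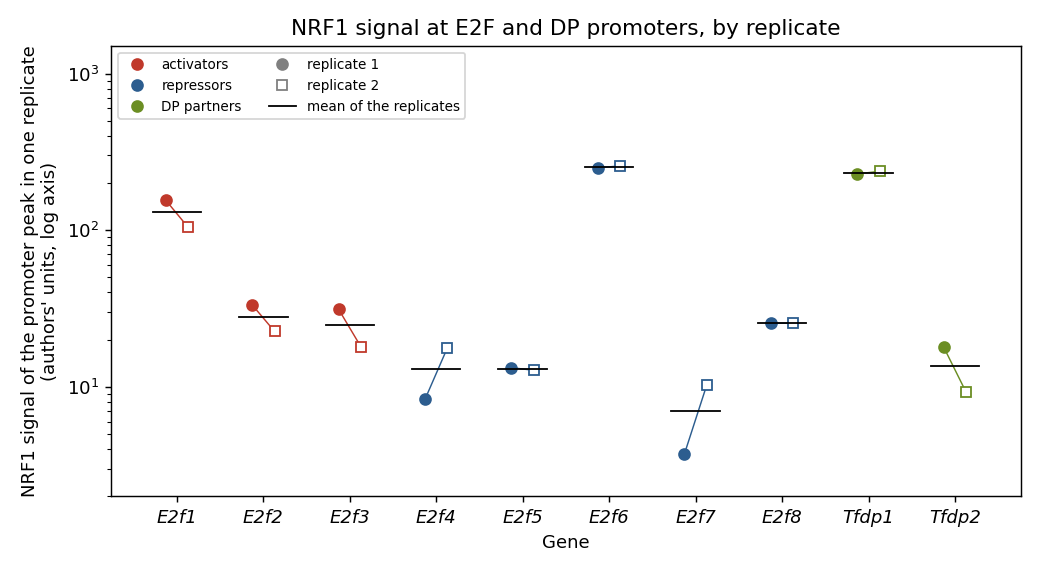
NRF1 signal (vertical axis, authors' units, log axis) at the promoter peak of each member in replicate 1 (filled circles) and replicate 2 (open squares), with the mean as a bar and colours for the classes. E2f6, Tfdp1 and E2f1 stand above the rest in both replicates, from 104 to 257, and no other member exceeds 33.4.

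The order of the members followed the same lead in both replicates: E2f6, Tfdp1 and E2f1 held the first 3 places, and the replicate values of these genes did not overlap each other. Below them E2f2, E2f3 and E2f8 overlapped in their replicate values, as did E2f4, E2f5 and Tfdp2, and E2f7 overlapped E2f4 and Tfdp2. For E2f7 and Tfdp2 the highest relaxed promoter peak of each replicate was used. The ratio of replicate 1 to replicate 2 was 1.49 for E2f1, 1.48 for E2f2 and 1.74 for E2f3, and it was 0.975 for E2f6, 0.963 for Tfdp1, 1.00 for E2f8, 1.04 for E2f5 and 0.468 for E2f4. Over 7782 occupied genes with a peak in both lists the ratio had a median of 1.06, and 95% of them lay between 0.473 and 2.97, so E2f4, with the relaxed peak of 8.32 as its replicate 1 value, fell just below that span. Among the 2961 with a signal above 200 that span was 0.883 to 1.45, so E2f1 lay just above it and E2f6 and Tfdp1 within it.

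**Figure D3:**
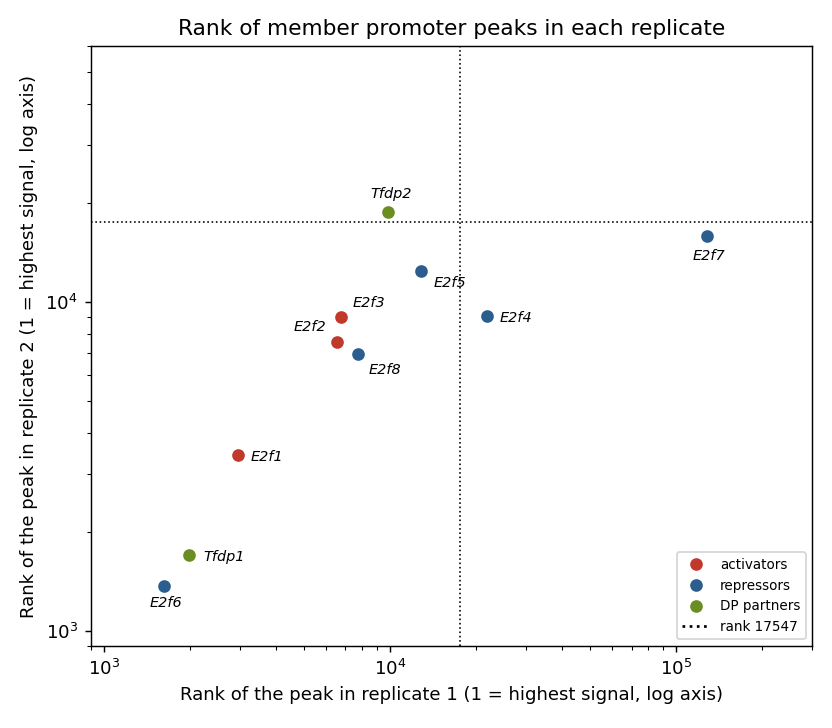
Rank of each member's promoter peak in replicate 1 (horizontal axis) and replicate 2 (vertical axis), both log axes on which 1 is the highest signal, with dotted lines at rank 17547. E2f7 lies beyond the line in replicate 1, as does the E2f4 peak nearest to the optimal summit, and Tfdp2 lies just beyond it in replicate 2.

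Set side by side, the activators were occupied in 3 of 3 cases and the repressors in 4 of 5, beside 36.8% of all genes and 63.7% of CpG-rich ones. Signals of the occupied ones ran from 49.3 to 258 (median 55.0) for activators and from 22.5 to 506 (median 42.0) for repressors. The ranges overlap, and the highest and the lowest occupied member are both repressors. Genes of a class are not replicates of it and the classes are this small, so no test was made between them. Over all class members, E2f7 included, the medians in the list called on the pooled replicates were 55.0 for activators and 33.1 for repressors. In replicate 1 they were 33.4 and 13.2, and in replicate 2 they were 22.6 and 17.8. The replicate 1 value of E2f4 was there its weaker relaxed peak (8.32, against 15.4 for the stronger), whereas E2f7 entered with its highest one.

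The other peak lists gave similar counts with different members. The share over CpG-rich genes, the nearer background, was computed for the optimal set alone (63.7%, beside 36.8% of all genes). For these lists and the mm9 list only the lower all-gene share is given, so their counts cannot be read against it as enrichment. In the conservative set 8 members were occupied (all genes: 35.5%), with Tfdp2 in place of E2f4. Of its 15936 peaks, 2173 (13.6%) overlapped no optimal peak, so it is not a subset of the optimal set. Among the 17547 highest peaks of each replicate, 9 members were occupied in replicate 1 (all genes: 37.9%), without E2f7, and 9 in replicate 2 (all genes: 36.6%), without Tfdp2. The relaxed lists, which hold 300000 peaks each and include background, had a summit at all 10 promoters in both replicates, where 59.6% of all genes had one in replicate 1 and 59.3% in replicate 2. The activators and E2f6, E2f8 and Tfdp1 were occupied in the optimal, conservative and mm9 sets and among the highest peaks of both replicates. All of these lists derive from the same replicates, so agreement between them is partly built in.

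**Figure D4:**
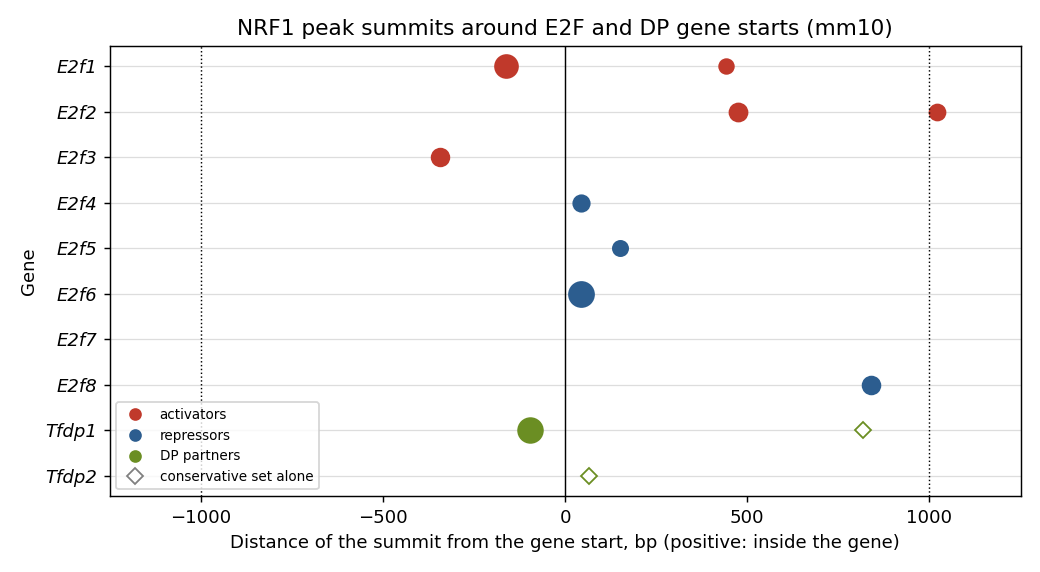
Distance of each summit from the gene start in bp (horizontal axis, positive values inside the gene) for the 10 members, with point size growing with the log of the signal and dotted lines at 1000 bp. Optimal peaks are filled and coloured by class, open diamonds mark peaks of the conservative set alone, and the summits of E2f4, E2f6 and Tfdp1 lie within 95 bp of the start while that of E2f8 lies at 839 bp.

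The mm9 list was made from the same replicates on another genome build, so it is not an independent check. Its signal is on another scale, so its values, here and below, can be ordered among themselves but not set against those on mm10. It had a promoter summit at 7 members (all genes: 33.1%): those with an optimal peak other than E2f5. Tfdp1 had 2645 and E2f6 2246, the highest values of the family, then E2f1 with 427, E2f8 with 80.1, E2f2 with 75.4, E2f3 with 68.0 and E2f4 with 43.8. The E2f3 summit was at -708 bp from the nearest GENCODE start on mm9, against -342 bp from the RefSeq start on mm10, since the annotations place the start differently. Tfdp1 and E2f6 again led, in the other order.

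Sites were counted within 500 bp of the gene start on mm9. An exact NRF1 consensus lay in 1 member, Tfdp1, and in 4.42% of 22208 promoters (8.98% of CpG-rich ones). With up to 1 mismatch, 4 members had a match (E2f2, E2f6, E2f7 and Tfdp1), against 39.7% of CpG-rich promoters. Within 250 bp 2 members had one (E2f6 and Tfdp1, against 31.0%), and within 1000 bp 5 had one, E2f8 included (against 44.8%). An E2F site lay in 6 members (E2f1, E2f2, E2f3, E2f7, E2f8 and Tfdp1), against 7.22% of all and 12.2% of CpG-rich promoters. The activators all held an E2F site, and none held an exact NRF1 consensus in this window.

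Under the mm9 summits, within 50 bp, the strongest members differed. Tfdp1 ranked among the 1122 strongest of 11216 peaks, of which 36.2% hold an exact consensus, and held one. E2f6 was in the next 1122, of which 71.7% hold a match with up to 1 mismatch, and held one centred 8 bp from its summit. E2f1 was in the following 1121, of which 50.3% hold such a match, and its 0 matches are visible in the stretch shown. At E2f2 the CG run was centred within 11 bp of the summit, and at E2f8 a second summit of signal 56.8 had an E2F site centred 34 bp from it. A match here describes letters and is not a site shown to be bound.

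The E2f7 promoter, with no selected peak, held both kinds of letters: an NRF1 match with 1 mismatch at -338 bp and E2F sites at -195 bp and 430 bp from the nearest start on mm9. E2f1, E2f3, E2f4, E2f5 and E2f8, all occupied, held no match to the NRF1 consensus with up to 1 mismatch within 500 bp of the gene start. From its nearest start, E2f8 did have one, at 310 bp (902 bp from the gene start). Occupancy of the members and a match in the promoter therefore did not go together one to one.

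The genes around the family were read from 6 lists of 66 genes, of which 52 were occupied (78.8%, median signal 120). Of the 66, 52 had a CpG-rich promoter, and 43 of those 52 carried a peak (82.7%), beside 63.7% of all CpG-rich genes. No test was made, since the lists were chosen with earlier results known.

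The 3 pocket protein genes, which encode the partners that hold E2F proteins in check, were all occupied: Rb1 at 52.6, Rbl2 at 29.8 and Rbl1 at 5.85. The conservative set held 2 of them, without Rbl1, and the mm9 list only Rb1. The Rb1 summit lay at 976 bp, near the limit, and 0.0638% of occupied genes had a lower signal than Rbl1. All 7 genes of the MuvB complex and its B-Myb and FoxM1 partners, which pair with pocket proteins in resting cells and with B-Myb in cycling ones, were occupied, with a median of 195 and the highest values at Lin37 (442), Rbbp4 (394) and Mybl2 (248). Pocket protein genes had a median of 29.8, below that of the E2F members.

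Of 12 genes of the Polycomb complex that includes E2F6, 9 were occupied (median 157), led by Pcgf6 (626), Max, the partner of the E-box protein MGA (574), and Wdr5 (464). Cbx3, Mga and Rybp had no peak of the optimal set at the RefSeq start. With the start of the RefSeq promoter table and the same optimal set, Mga had a peak of 424 at 5 bp, and the mm9 list had one at its GENCODE start too (6085). E2f6 itself, at 506, lay among the higher signals of this group.

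Of 9 genes for G1/S cyclins and kinases, 6 were occupied (median 171): Ccna2, the cyclin A2 gene, at 652, Cdk4 at 334 and Ccne1 (cyclin E1) at 221 were the highest, and Ccnd1, Ccnd3 and Cdk6 had no optimal peak within 1000 bp of the RefSeq gene start. The nearest optimal summit of Cdk6 lay 1266 bp from that start (signal 185). At the starts of the RefSeq promoter table Ccnd3 had an optimal peak of 30.7 and Cdk6 one of 5.16, and the mm9 list had a peak at Ccnd3 (53.8). Of 7 kinase inhibitor genes, 3 were occupied (Cdkn1b at 87.7, Cdkn2d at 81.2 and Cdkn2c at 44.3), and Cdkn1a, Cdkn1c, Cdkn2a and Cdkn2b were not, though Cdkn1a had a promoter peak in the mm9 list (34.6). Conversely, Cdkn2d had no promoter peak in the mm9 list. Cdkn2c, with 34.7 in replicate 1 and 9.11 in replicate 2, had none in the conservative set.

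Of 28 genes commonly described as E2F targets, 24 were occupied (median 165), led by the replication genes Mcm4 (628) and Cdt1 (602) and the Polycomb methyltransferase gene Ezh2 (534). Dnmt1, Mcm10, Mcm7 and Orc1 had none at the RefSeq start, though Dnmt1 (3477), Orc1 (50.9) and Mcm7 (35.7) had one in the mm9 list at a GENCODE start and Mcm10 (34.4) and Mcm7 (24.8) in the conservative set. With the starts of the RefSeq promoter table, Dnmt1 (322) and Orc1 (25.7) had an optimal peak. The mm9 list held a promoter peak at 22 of the 28 genes. It had none at several genes occupied in the optimal set, Mcm4 among them, whose mm10 summit lay at -463 bp. Signals of E2f6 and Tfdp1 were of the size of the leading genes of this list, and those of the other members but E2f1 were below its median.

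**Figure D5:**
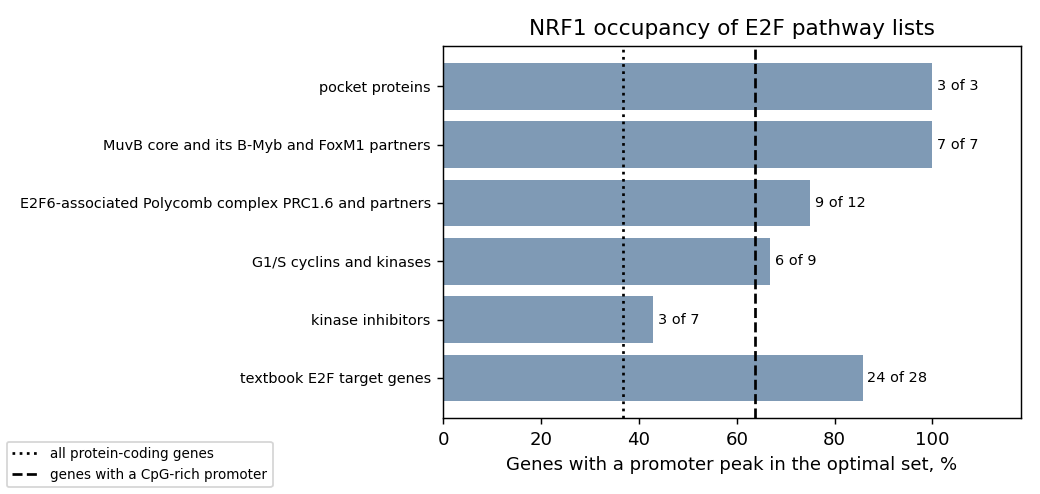
Share of genes with a promoter peak in the optimal set, in percent (horizontal axis from 0), for the 6 lists, with the count beside each bar, a dotted line at 36.8% (all genes) and a dashed line at 63.7% (genes with a CpG-rich promoter). The bars also count genes without a CpG-rich promoter, unlike the dashed line. The kinase inhibitors, at 42.9%, are the one list below that line, and remain so over CpG-rich genes alone (50%).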

How the data were processed

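NRF1 peaks of 2 biological replicates were analysed as deposited on chromosomes 1 to 19 and X: an optimal set (17547 peaks), a conservative set (15936) and relaxed lists on mm10, and a set on mm9 (11216). The selected sets were made by irreproducible discovery rate, per the notes the authors deposited. The sources used here do not name the aligner, the caller, its thresholds or the depth, and no interval that needs depth was computed. The signal of each peak and the rank score of the selected sets are the authors' values, deposited with the peaks, and were used only to describe and rank peaks within a list. The labels say biological replicates but not how the cultures were kept, so an SD covers the spread between these libraries, which may be technical.

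Gene starts on mm10 came from RefSeq (GRCm38.p6), 1 per gene. Strand came from the RefSeq promoter table (17273 genes), else from GENCODE vM1 by symbol (3648) or synonym (396), and 310 genes without one were left out. Of the members, 8 had a promoter table entry. Sequences were credited to RefSeq or read from mm9 (NCBIM37), and no coordinate was converted. The replicate value is the relaxed peak overlapping the optimal one whose summit is nearest, given as mean ± SD. The assignment and the motif search were tested on simulated data. Members, classes, lists and alternatives were chosen with earlier results of these data known. Named genes were the members, every gene whose start lies by a member peak, and of each list the 3 strongest occupied and the unoccupied genes. No test was run. Python 3.11.15, pandas 2.3.3, numpy 2.4.6 and pysam 0.24.0 were used.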

Additional observations from a re-analysis of the deposited data

How the results depend on the processing

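With a limit of 500 or 2000 bp, the conservative set, the 8773 strongest optimal peaks, the mm9 set, each replicate alone, or the starts of the RefSeq promoter table (an alternative added after seeing the data), the count of occupied members was 6 to 9, the activators stayed at 3, and the listed pathway genes at 44 to 57. The limit of 500 bp left out E2f8. The repressors fell to 2 in the 8773 strongest peaks (E2f6 and E2f8). The DP genes were 2 in the conservative set and 2 without replicate 2, and they stayed at 1 without replicate 1. Of the counts with an NRF1 site, 1 for the exact consensus became 4 with up to 1 mismatch and 3 with a GCGCA core followed, after at most 2 bases, by 4 of 5 matching letters. The other alternatives, 48 of 53, gave a count within 1.5 times the reported one, or a median within the spread between replicates; since counts are small, this tolerance takes in changes such as 8 members to 6 and 4 repressors to 3. The stronger peaks and the looser motif rules change what is admitted by construction, and for the DP genes the cause was not tested. Depth is unknown, so weak peaks such as those of E2f7 and Tfdp2 could not be set against a detection limit. No paired analysis was possible because the 2 replicates form 1 group.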

Other observations

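Sites were sought within 500 bp of the GENCODE start on mm9, and occupancy was called at the RefSeq start on mm10, over genes named in both. These starts can differ. Promoters with an E2F site were occupied by NRF1 in 790 of 1356 genes (58.3%), against 6108 of 16849 without one (36.3%). Among CpG-rich promoters the shares were 67.1% of 1034 and 63.2% of 7498. For an NRF1 match with up to 1 mismatch the shares among CpG-rich promoters were 73.0% and 57.5%, and the median signal of the occupied ones was 421 and 52.6. These are descriptions over genes that were not tested.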
